A study of Mus musculus with 2 samples.

Results

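Transporters that move organic anions, organic cations, urate, carnitine, bile salts and drugs across cell membranes were examined in kidneys lacking *Cnnm2*, a gene for a magnesium transporter of the tubule. The members are the genes whose array names begin with Slc22a, Slc47a or Slco, or with Abcb, Abcc or Abcg and a number, and this rule uses no measured value. It takes 62 of the 31821 gene names on the arrays, with 76 of the probes. Of the 62 genes, 45 had a probe whose signal the scanner software called well above background on array 1 and array 2 for at least 1 genotype, and all 45 met this for both genotypes. The other 17 were too dim for a ratio to be read.

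Kidneys came from *Cnnm2* fl/fl;*Six2-Cre* mice (knockout) and *Cnnm2* +/+;*Six2-Cre* mice (control), all 2 months old. Both genotypes carried *Six2-Cre*, a transgene that expresses a Cre recombinase fused to GFP in the embryonic kidney. Cells of other origin in the organ, such as vessels and blood cells, would keep *Cnnm2*. RNA of both genotypes was hybridized together on 2 arrays of 2 colours. Knockout RNA carried Cy5 on array 1 and Cy3 on array 2. How many mice gave the RNA of each genotype is not stated. The methods state in general that experiments used male and female mice matched for age and sex, without saying which sex gave the RNA of the arrays. Each genotype was therefore treated as having 1 replicate, and no result below rests on a test between the genotypes. Each SD below is that of the 2 arrays and is assumed to cover labelling and hybridization only. In whole kidney, fewer cells of a type and less RNA per cell cannot be told apart.

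The proximal tubule secretes drugs and metabolites in 2 steps. Organic anions enter from the blood through OAT proteins and leave into urine through ATP-driven pumps, while organic cations enter through OCT proteins and leave through the proton exchangers of the MATE family. OATP proteins, encoded by the *Slco* genes, take up bile salts, steroid conjugates, thyroid hormones and prostaglandins, and the ABC proteins use ATP to export drugs, conjugates and lipids.

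Each value is read by a 60-base oligonucleotide. The first 30 bases of the probes are shown for the members with the highest mean ratios among the 45, with the mm9 position of the whole probe. Nothing is marked by capitals here.
*Slco4a1*, chr2:180209483-180209542, plus strand: gcagcttgtgtggacagtgtgtttctatgt
*Slc22a7*, chr17:46569272-46569331, minus strand: cctgtgtttatccagtctccaaaaacagga
*Slco1a1*, chr6:141856493-141856552, minus strand: gatattctcaaagactactttcttatactc
*Slco1a6*, chr6:142034707-142034766, minus strand: ttattttcagaacttcagggtagcacttaa
The *Slco1a* genes are close relatives of each other. Whether their probes also meet transcripts of the relatives was not tested.

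The 250 bases before the start of transcription are shown for 4 of the 6 members that were higher in the knockout sample on both arrays and have an entry in the promoter table. These are the *Slco* genes with the highest mean ratios and *Slc22a6*, the main uptake carrier for organic anions. *Slco4a1* has a second listed start, which is not shown. They are from RefSeq on build GRCm38.p6. Capitals would mark CAAAGTCCA, a site of the transcription factor HNF4, searched on both strands, and none of the windows holds it. Only these exact letters were searched, so whether the windows hold an HNF4 site of another spelling was not tested.
*Slc22a6*, chr19:8617746-8617995, plus strand: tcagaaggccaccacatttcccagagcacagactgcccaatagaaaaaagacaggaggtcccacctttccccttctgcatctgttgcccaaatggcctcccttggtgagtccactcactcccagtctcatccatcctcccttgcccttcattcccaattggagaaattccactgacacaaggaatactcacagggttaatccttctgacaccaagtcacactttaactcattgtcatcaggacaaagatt
*Slco4a1*, chr2:180455995-180456244, plus strand: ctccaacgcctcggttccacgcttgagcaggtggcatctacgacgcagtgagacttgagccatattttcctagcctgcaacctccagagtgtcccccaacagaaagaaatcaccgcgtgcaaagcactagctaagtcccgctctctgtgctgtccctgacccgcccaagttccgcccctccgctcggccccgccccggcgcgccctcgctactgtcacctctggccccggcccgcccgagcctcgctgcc
*Slco1a1*, chr6:141946963-141947212, minus strand: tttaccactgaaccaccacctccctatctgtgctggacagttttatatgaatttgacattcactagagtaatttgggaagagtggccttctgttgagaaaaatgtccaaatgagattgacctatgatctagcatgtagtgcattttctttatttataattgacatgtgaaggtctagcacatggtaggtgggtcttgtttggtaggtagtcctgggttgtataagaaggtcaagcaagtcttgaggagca
*Slco1a6*, chr6:142186150-142186399, minus strand: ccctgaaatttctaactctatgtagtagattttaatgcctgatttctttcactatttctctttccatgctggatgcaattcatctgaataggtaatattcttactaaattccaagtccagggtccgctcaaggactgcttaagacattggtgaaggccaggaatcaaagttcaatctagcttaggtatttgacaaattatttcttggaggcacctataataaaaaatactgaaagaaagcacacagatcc
Of the 45 members, 31 had a promoter in the table. CAAAGTCCA or its reverse complement occurred in 0 of these 31 and in 122 of 27025 genes in all (0.451%). With so low a share over all genes, 0 of 31 does not set the members apart.

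The labels were checked with the deleted gene. *Cnnm2* had log2 ratios of knockout over control of -2.88 on array 1 and -2.46 on array 2. The ratio of a gene was read as a direction only where both arrays had the same sign, because a dye effect turns its sign between the arrays. Over all 19707 genes well above background, 27.7% had the same sign on both arrays, with 12.1% higher and 15.6% lower in the knockout sample. Among the 45 transporters, 15 (33.3%) had the same sign, with 10 (22.2%) higher and 5 (11.1%) lower. Their median log2 ratio was 0.02, against -0.01 over all genes.

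No transporter reached 2-fold in the same direction on both arrays. Over all genes, 0.315% were higher and 0.284% lower by this limit. With a limit of 0.5 on the mean log2 ratio, *Slco4a1* and *Slc22a7* were counted as higher, which is 2 of 45 members against 1.28% of all genes. None was counted as lower, against 1.38% of all genes. The next member below the limit was *Slco1a1*.

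**Figure D1:**
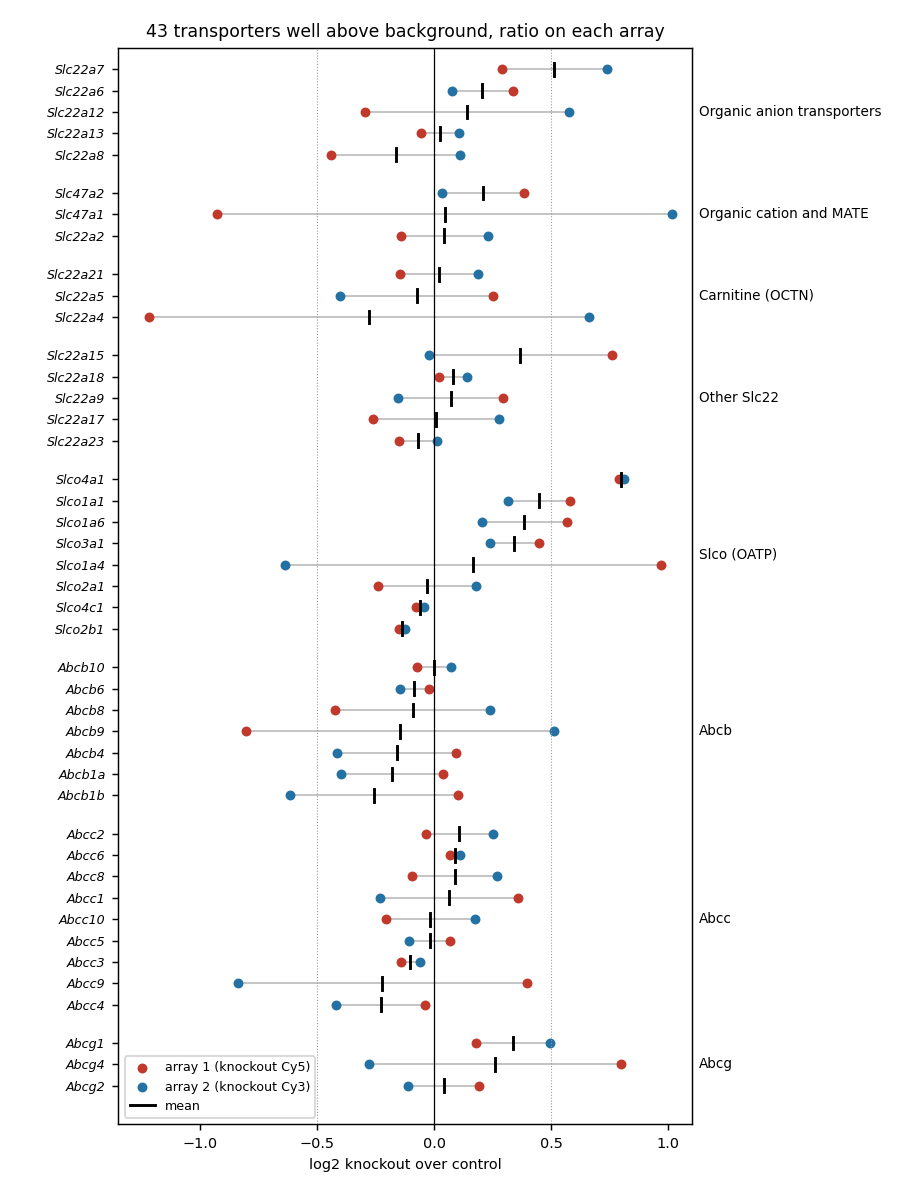
Log2 ratio of knockout over control for 43 of the 45 transporters well above background, by family, with red points for array 1, blue points for array 2 and a black bar for their mean. The points of *Slco4a1* nearly coincide at 0.79 and 0.81, while those of *Slc47a1* lie at -0.93 and 1.02, and dotted lines mark -0.5 and 0.5.

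The organic anion transporters of the *Slc22* family are central to renal drug secretion. Of 6 members in this group, 5 were well above background, 2 were higher on both arrays and none was lower on both. The shares over all genes were 12.1% higher and 15.6% lower, and a count among 5 genes is small. *Slc22a7* encodes OAT2, a carrier of organic anions and nucleotides. Its log2 processed signal was 14.85 for knockout and 14.56 for control RNA on array 1, and 14.77 and 14.03 on array 2. Both knockout channels were above both control channels. The log2 ratios were 0.29 and 0.74, with a mean of 0.51 ± 0.32 (SD), or 1.43-fold.

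*Slc22a6* and *Slc22a8* encode OAT1 and OAT3, the uptake carriers of the basolateral membrane, and are neighbours on chromosome 19. For *Slc22a6*, the log2 signal was 16.14 for knockout and 15.80 for control RNA on array 1, and 15.90 and 15.82 on array 2. The knockout channels were higher, by little on array 2. The ratios of 0.34 and 0.07 had a mean of 0.21 ± 0.19 (SD), which is barely more than the SD of the arrays. With background-subtracted signals centred on the median, its arrays no longer had the same sign. For *Slc22a8*, the log2 signal was 9.92 for knockout and 10.36 for control RNA on array 1, and 9.77 and 9.66 on array 2. The arrays went in opposite directions (-0.44 and 0.11).

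*Slc22a12* encodes URAT1, which reabsorbs urate from the tubular fluid. Its ratios were -0.30 and 0.58. *Slc22a13* encodes OAT10, a carrier of urate and nicotinate, with ratios of -0.06 and 0.10. *Slc22a20* was not well above background. The gene named *Slc22a9* in the files has an accession that RefSeq gives to *Slc22a19*, another organic anion transporter of the kidney, and its ratios were 0.30 and -0.15. None of these had a direction shared by the arrays.

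The organic cation transporters and their apical partners, the MATE exchangers, included 5 members, of which 4 were well above background. *Slc22a2* encodes OCT2, which takes up organic cations from the blood. Its ratios were -0.14 and 0.23, with a mean of 0.04. *Slc22a3* was not well above background.

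*Slc47a1* encodes MATE1, which exports organic cations into urine. Its log2 signal was 11.66 for knockout and 12.59 for control RNA on array 1, and 12.86 and 11.84 on array 2. The Cy3 channel was thus higher on both arrays whichever genotype it held, with ratios of -0.93 and 1.02 and a mean of 0.04 ± 1.37 (SD). Its neighbour on chromosome 11, *Slc47a2*, had ratios of 0.38 and 0.03, with a mean of 0.21 that was 0.07 with normexp background correction and loess normalization. The signal of *Slc47a2* was dim, with a mean log2 value of 4.97 against 12.24 for *Slc47a1*.

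Among the carnitine and zwitterion carriers, 3 of 4 were well above background and none had the same sign on both arrays. *Slc22a5* encodes OCTN2, which reclaims carnitine from the filtrate, with ratios of 0.25 and -0.40. *Slc22a4* encodes OCTN1, a carrier of ergothioneine, with ratios of -1.22 and 0.66, the widest swing toward Cy3 in this group. *Slc22a21* had ratios of -0.15 and 0.19, and *Slc22a16* was not well above background. The genes *Slc22a5*, *Slc22a21* and *Slc22a4* follow each other on chromosome 11.

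**Figure D2:**
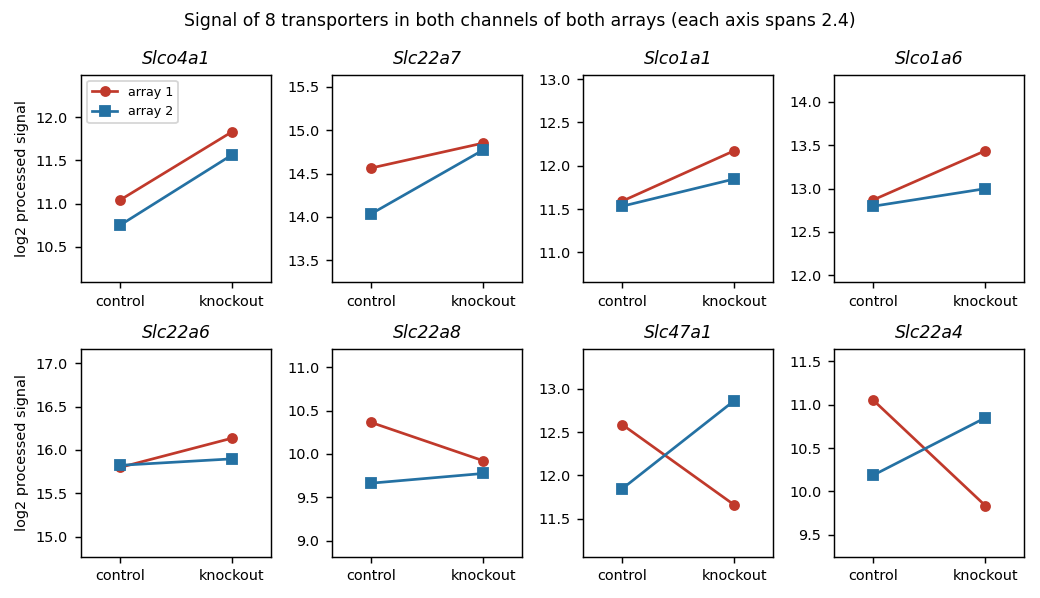
Log2 processed signal of 8 transporters in the control and knockout channels of array 1 (red circles) and array 2 (blue squares), with each vertical axis spanning 2.4 units. Both lines slope upward for *Slco4a1*, *Slc22a7*, *Slco1a1* and *Slco1a6*, from 11.04 to 11.83 and from 10.75 to 11.56 for *Slco4a1*, whereas the lines cross for *Slc47a1* and *Slc22a4*.

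Of the remaining *Slc22* genes, *Slc22a18* had small ratios of one sign (0.02 and 0.14). *Slc22a15* had ratios of 0.76 and -0.02, with a mean of 0.37 that was 0.15 with normexp and loess. Its second probe was not well above background. *Slc22a17*, a gene for a receptor of lipocalin-2, had ratios of -0.26 and 0.28. *Slc22a23* had ratios of -0.15 and 0.01. *Slc22a14* was not well above background.

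The *Slco* genes held 4 of the 10 transporters that were higher on both arrays. Of 15 members, 8 were well above background, 4 were higher and 2 lower on both arrays, and their median log2 ratio was 0.25. Over all genes, 12.1% were higher and 15.6% lower on both arrays, and a count among 8 genes is small. *Slco4a1* encodes OATP4A1, a carrier of thyroid hormones and prostaglandins. Its log2 signal was 11.83 for knockout and 11.04 for control RNA on array 1, and 11.56 and 10.75 on array 2. Both knockout channels lay above both control channels. The ratios of 0.79 and 0.81 had a mean of 0.80 ± 0.017 (SD), or 1.74-fold, which was the highest mean among the 45 members and ranged from 0.74 to 0.80 over the corrections and ratio sources tried.

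*Slco1a1* encodes Oatp1a1, a carrier of bile salts and steroid conjugates whose kidney RNA is known to be higher in male than in female mice. Its log2 signal was 12.17 for knockout and 11.59 for control RNA on array 1, and 11.85 and 11.53 on array 2. Both knockout channels exceeded both control channels. The ratios were 0.58 and 0.31, with a mean of 0.45 ± 0.19 (SD). *Slco1a6*, a kidney member of the same chromosome 6 family, had log2 signals of 13.44 for knockout and 12.87 for control RNA on array 1, and 12.998 and 12.80 on array 2. Again, the knockout channels were above the control channels. Its ratios were 0.57 and 0.20, with a mean of 0.39 ± 0.26 (SD). With background-subtracted signals centred on the median, *Slco1a6* no longer had the same sign on both arrays. The third family member above background, *Slco1a4*, had ratios of 0.97 and -0.64, and *Slco1a5* was not well above background.

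Kidney genes that differ between the sexes were set beside *Slco1a1*, from lists chosen with earlier results of these data known. Of 6 male-biased kidney genes, 5 were higher on both arrays (*Cyp2j13*, *Cyp7b1*, *Acsm3*, *Odc1* and *Gusb*), with mean log2 ratios from 0.25 to 0.58, while *Kap* had ratios of -0.10 and -0.10. The shares over all genes were 12.1% higher and 15.6% lower on both arrays, and a count among 6 genes is small. The summed signal of the 6 male-biased genes was 270000 and 206000 in the knockout and 237000 and 192000 in the control channels of arrays 1 and 2. Of the 2 female-biased genes, *Slc7a12* was lower on both arrays (-1.04 and -0.92), and *Cyp4a14* had ratios of 0.14 and -0.39. The 3 Y-linked genes above background (*Ddx3y*, *Eif2s3y* and *Uty*) were all higher in Cy5 on both arrays, with means from -0.04 to 0.16, and *Xist* was not well above background in either genotype. The part of sex in the result for *Slco1a1* was not tested.

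*Slco3a1* encodes a carrier of prostaglandins and thyroxine. Its log2 signal was 13.42 for knockout and 12.97 for control RNA on array 1, and 13.13 and 12.89 on array 2, so that the knockout channels were the higher ones. The ratios of 0.45 and 0.24 had a mean of 0.34 ± 0.15 (SD). A second probe had ratios of 0.41 and 0.01, so that the genotypes hardly differed by this probe on array 2. *Slco2b1*, an uptake carrier of steroid sulfates, had ratios of -0.15 and -0.12, and its second probe, which overlaps the first, had ratios of -0.03 and -0.28. *Slco4c1*, the basolateral carrier of cardiac glycosides and thyroid hormones in the kidney, had ratios of -0.08 and -0.05, and its mean was 0.00 with normexp and loess. *Slco2a1*, the prostaglandin transporter, had ratios of -0.24 and 0.18. The 7 *Slco* genes not well above background were *Slco1a5*, *Slco1b2*, *Slco1c1*, *Slco5a1*, *Slco6b1*, *Slco6c1* and *Slco6d1*.

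**Figure D3:**
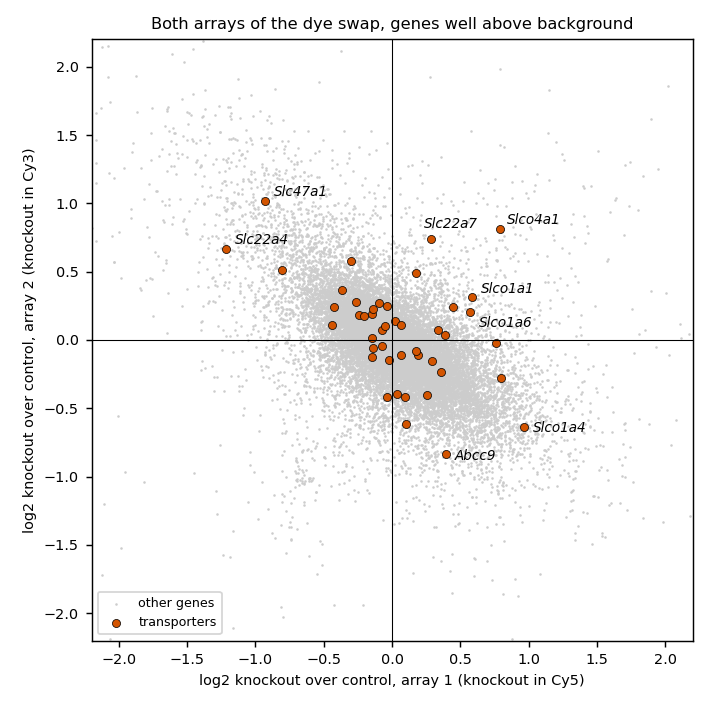
Log2 ratio of knockout over control on array 1 (horizontal) against array 2 (vertical) for 19707 genes (grey) and 45 transporters (orange), within 2.2 units of 0, which leaves 88 genes outside. *Slco4a1* lies at 0.79 and 0.81 at the upper right, apart from most members, which lie along the falling diagonal where the sign turns with the dye.

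Of the ABC genes above background, 5 of 20 had the same sign on both arrays, and of the *Slc* genes 10 of 25, a difference that was not tested. The share over all genes was 27.7%. The P-glycoproteins *Abcb1a* and *Abcb1b*, which export drugs, and *Abcb4*, which exports phosphatidylcholine, follow each other on chromosome 5. On array 1 their ratios were 0.04, 0.10 and 0.09, and on array 2 they were -0.40, -0.62 and -0.42. The 3 neighbours thus had close values on each array, while none kept its sign between the arrays. *Abcb5* and *Abcb11* were not well above background.

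The *Abcb* genes of organelles were all 5 above background. *Abcb6*, *Abcb8* and *Abcb10* serve mitochondria, and *Abcb9* transports peptides into lysosomes. *Abcb6* was the only one with the same sign on both arrays (-0.02 and -0.15), and *Abcb9* had ratios of -0.80 and 0.51. *Abcb10* had ratios of -0.07 and 0.07. The probes of *Abcb8* had means of -0.09 and 0.0041, with ratios of -0.42 and 0.24 for the brighter probe and -1.33 and 1.34 for the other.

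Among the multidrug resistance proteins of the *Abcc* family, 7 of 8 were above background and their median log2 ratio was -0.02. *Abcc4* encodes MRP4, an apical pump for cyclic nucleotides, urate and anionic drugs. Its log2 signal was 10.93 for knockout and 10.97 for control RNA on array 1, and 10.60 and 11.02 on array 2. The ratios of -0.04 and -0.42 had a mean of -0.23 ± 0.27 (SD), which is less than the SD of the arrays. *Abcc2* encodes MRP2, the apical pump for glutathione conjugates, and had ratios of -0.04 and 0.25.

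*Abcc3*, a basolateral pump, had ratios of -0.14 and -0.06, and *Abcc6*, the gene of pseudoxanthoma elasticum, had ratios of 0.07 and 0.11. The second probe of *Abcc6* had ratios of -0.29 and 0.31. *Abcc1* had ratios of 0.36 and -0.23, and *Abcc10* of -0.21 and 0.17. For *Abcc5*, an exporter of cyclic nucleotides, the brightest of 4 probes was printed 10 times. The SD between its spots was 0.031 on array 1 and 0.037 on array 2, against an SD of 0.12 between the arrays. This probe had ratios of 0.07 and -0.11, with a mean of -0.02. The other 3 probes had means of 0.16, 0.22 and 0.30. Those with means of 0.16 (ratios of 0.26 and 0.06) and 0.22 (0.31 and 0.13) were higher on both arrays. The probe with a mean of 0.30 had opposite signs (-0.17 and 0.77), so that the result depended on the probe. *Abcc12* was not well above background.

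The sulfonylurea receptors *Abcc8* and *Abcc9*, which are subunits of ATP-sensitive potassium channels and not drug pumps, had ratios of -0.09 and 0.27 for *Abcc8* and 0.39 and -0.84 for *Abcc9*. The second probe of *Abcc8*, which overlaps the first and was also well above background, had ratios of 0.27 and 0.31, of the same sign, with a mean of 0.29. In the *Abcg* family, *Abcg2* encodes BCRP, the apical pump for drugs and urate. Its log2 signal was 15.67 for knockout and 15.48 for control RNA on array 1, and 15.14 and 15.25 on array 2, and its ratios of 0.19 and -0.11 had a mean of 0.04 ± 0.22 (SD). *Abcg1*, which exports cholesterol to lipoproteins, had log2 signals of 8.84 for knockout and 8.66 for control RNA on array 1, and 8.93 and 8.43 on array 2. Its ratios of 0.18 and 0.49 had a mean of 0.34 ± 0.22 (SD), and both knockout channels lay above both control channels. *Abcg4* had ratios of 0.80 and -0.28, and its mean of 0.26 was 0.07 with normexp and loess. Its second, dimmer probe overlaps the first and was well above background for knockout RNA but not for control RNA. This probe had ratios of 0.96 and 0.17, of the same sign, with a mean of 0.56 that is past the limit of 0.5. That mean rests on dim control signals, with log2 values of 2.87 on array 1 and 3.42 on array 2. The result for *Abcg4* thus depends on the probe. *Abcg3*, *Abcg5* and *Abcg8* were not well above background.

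In 6 transporters, *Slc47a1*, *Slc22a4*, *Slco1a4*, *Abcb9*, *Abcc9* and *Abcg4*, the arrays had opposite signs by the brightest probe and differed by so much that the contrast of the dyes was at least 0.5 in size. This is 13.3% of the members, against 15.5% of all genes. By these probes, a single array would have given a difference of either sign.

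**Figure D4:**
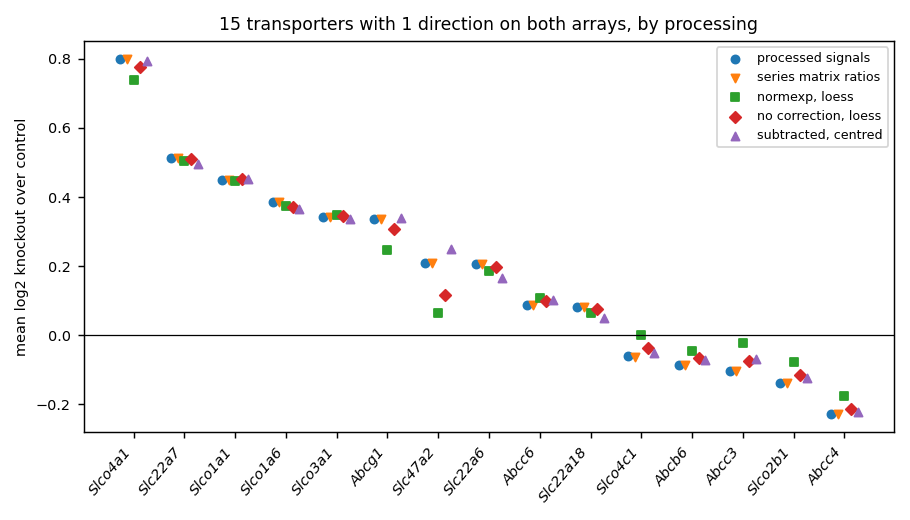
Mean log2 ratio of knockout over control of the 15 transporters with the same sign on both arrays, by the processing of the signals (markers). *Slco4a1* stays between 0.74 and 0.80 and *Slc22a7* between 0.49 and 0.51, while *Slc47a2* lies between 0.07 and 0.25.

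Of these 15 transporters, 11 kept their sign on both arrays with normexp and loess, and all 10 higher members were among them. With no background correction and loess, 14 kept it. With background-subtracted signals centred on the median, 7 kept it, of which 6 were the higher members *Slco4a1*, *Slc22a7*, *Slco1a1*, *Slco3a1*, *Abcg1* and *Slc47a2*. Among these 6, *Slc47a2* was dim, with a mean log2 signal of 4.97, and its ratio on array 2 was only 0.03.

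Genes that work beside these transporters were given by a list of 25, of which 23 were on the arrays by the listed names and all 23 were above background. The list holds transcription factors of the tubule, scaffold proteins of the apical membrane, dicarboxylate carriers that drive anion exchange, and other carriers of urate, nucleosides and bile salts. In total, 5 of 23 were higher and 5 lower on both arrays, against 12.1% and 15.6% of all genes. The median log2 ratio of the 23 was -0.04. By the limit of 0.5, none was counted as higher, against 1.28% of all genes. At this limit 1 gene of 23 was counted as lower, against 1.38% of all genes. This was *Slc2a9*, a urate carrier, with ratios of -0.34 and -0.70 and a mean of -0.52 ± 0.25 (SD). *Hnf4a*, a transcription factor of the tubule, had ratios of -0.31 and 0.08, and *Pdzk1*, the scaffold of apical anion carriers, of -0.02 and 0.15. *Slc13a3*, which brings dicarboxylates into the cell for exchange by OAT1 and OAT3, had ratios of -0.07 and -0.09.

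The 6 proximal tubule markers (*Slc34a1*, *Slc5a2*, *Lrp2*, *Cubn*, *Slc5a12* and *Slc7a13*) were all well above background and all had opposite signs on the arrays. Their means lay between -0.15 and 0.17, and their summed signal was 299000 and 217000 in the knockout and 244000 and 247000 in the control channels. Of the hepatocyte markers, *Ttr* had ratios of 1.34 and 0.47, *Alb* of 0.18 and -0.31, and *Apoa1* was not well above background. The summed signal of these 3 was 23500 and 16300 in the knockout and 9610 and 12100 in the control channels. This sum mainly follows the single gene *Ttr*, whose mean log2 signal was 13.76, against 9.27 for *Alb* and 1.65 for *Apoa1*. The part of hepatocyte RNA in the *Slco* results was not tested. Of 17 markers of other nephron segments, podocytes, endothelium, leukocytes and red blood cells, 0 were higher and 9 lower on both arrays. Over all genes, 12.1% were higher and 15.6% lower. Of the 2 markers of the distal convoluted tubule, *Pvalb* had ratios of -1.98 and -1.52. The other, *Slc12a3*, had ratios of -0.78 and 0.19, with no shared sign. The part of these cells in the transporter values was not tested.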

How the data were processed

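RNA from mouse kidneys of 2 genotypes was measured on 2 arrays of 2 colours with exchanged dyes, on 1 slide. The authors deposited the signal intensity of every spot from Agilent Feature Extraction (10.7.3.1 in the file headers, 10.5.1.1 in the submitters' processing notes), with a processed intensity after correction of the background and of the dye bias. The log10 ratio of red over green was also deposited in these files, and a log10 ratio of knockout over control in the matrix of the series. The log10 values of both sources differed by at most 0.0049. Columns of p-values and errors of the scanner software were not used. The dye labels set the direction of every ratio. Probe positions are on mm9. The values of some members and partners are not reported here, though they are in the counts.

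Processed signals were taken to log2. Control spots and spots marked as outliers were left out (0 of these marks fell on the members), spots of a probe were averaged, and each gene name was read by its brightest probe. RefSeq listed the accessions of 75 of the 76 probes. Genes were counted where the mean log2 ratio reached 1 or 0.5 in size and the same sign on both arrays. The share of spots well above background was 68.0% for knockout and 63.0% for control RNA on array 1, with 62.6% and 67.6% on array 2. The number of arrays limits the precision, and 0 spots of genes were saturated.

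Named were all organic anion, organic cation and carnitine carriers, the main efflux pumps, the 10 highest and 10 lowest means, counted members, members whose probes disagree, and the lists reported. The members and the lists (partners, male-biased, female-biased and Y-linked genes, *Xist*, proximal tubule, hepatocytes, other cells) were chosen with earlier results of these data known. The alternatives were normexp (offset of 50) with loess, subtracted signals (floor of 1), no correction with loess, the deposited ratios, other limits on dim probes, the median over probes, marked spots kept, each array alone, the contrast between the dyes, the methods' t-test, and limma 3.58.1 in R 4.3.3. Other steps used Python 3.11.15 with numpy 2.4.6, pandas 2.3.3 and scipy 1.17.1.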

Additional observations from a re-analysis of the deposited data

How the results depend on the processing

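The counts of transporters at least 2-fold higher or lower were 0 and 0 and did not change with the corrections, ratio sources and limits on dim probes tried. On 1 array alone, the count of higher members at 2-fold was 0 to 1 (*Slc47a1* on array 2, without array 1) and that of lower members 0 to 1 (*Slc22a4* on array 1, without array 2). At a limit of 0.5, either array alone gave 6 higher and 3 lower members of 45, and the median log2 ratio of the members was 0.020 to 0.10. Over all 19707 genes, array 1 alone gave 2439 higher and 1966 lower at this limit, and array 2 alone gave 1518 and 1883. Background-subtracted signals left 1 member higher at the limit of 0.5, since *Slc22a7* was at 0.49. With no limit on dim probes, 3 members were higher at 0.5 (*Slco1c1* added) and 1 was lower (*Slc22a14*), neither of which was well above background. The count with the same sign was 15 of 45 and ranged from 11 to 16 of 45 where the limit on dim probes was kept. With no such limit it was 19 of 62. The counts over all genes were 5458 of 19707 in the main setting and 4747 of 19707 with background-subtracted signals. They were 8055 of 31821 with no limit on dim probes. With both arrays kept, 306 of 315 values of single members under these alternatives moved by no more than the SD of the arrays. This count is a weak check, because the deposited ratios and the marked spots could hardly move a member. For members with opposite signs, the SD also holds the dye effect. *Slco4a1*, with an SD of 0.017, moved by more than its SD to 0.74 with normexp and loess and to 0.78 with no correction and loess. On 1 array alone the mean is replaced by that array's ratio, such as -0.93 or 1.02 for *Slc47a1*. Over all genes, normexp with loess lowered the counts at 2-fold from 62 and 56 to 7 and 8. The methods' t-test and limma take the arrays as replicates of the genotypes, which they may not be. The t-test, at the threshold of 0.1 with a fold above 2, counted 0 members in each direction, before and after Benjamini-Hochberg adjustment. Without the limit on fold it passed 2 members, *Slco4a1* and *Slco2b1*, and after adjustment none. After adjustment, limma also passed none. One member was under 0.05 unadjusted in the t-test and 1 in limma. Both tests use the ratio of knockout over control on each array, so the genotypes are already paired in them. No further pairing was possible because the arrays form 1 group.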

Other observations

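RefSeq now gives *Slc22* names to 5 further genes that the arrays list under older names, so that the rule by name did not take them. All 5 were well above background. *Slc22a22* (*BC026439* in the files) had log2 ratios of knockout over control of 0.93 on array 1 and -0.25 on array 2. *Slc22a26* (*BC014805*) was the only one with the same sign on both arrays, with ratios of 0.07 and 0.38 and a mean of 0.22 ± 0.22 (SD of the 2 arrays). *Slc22a27* (*AB056442*) had ratios of 0.31 and -0.32, and *Slc22a29* (*D630002G06Rik*) of 0.23 and -0.19. *Slc22a28* (*Gm5631*) has 2 probes, with ratios of 0.53 and -0.07 for the brighter and 0.70 and -0.08 for the other. Counted with the 45 transporters, these genes would leave the number of members past a log2 ratio of 0.5 at 2.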
